A study of Mus musculus with 20 samples.

Results

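Slc16a1, Slc16a3, Slc16a10, Slc16a12 and Slc6a8 encode plasma membrane carriers for monocarboxylates, aromatic amino acids and creatine, and their transcripts were followed in mouse extensor digitorum longus (EDL), a fast muscle of the hindlimb. The members are the 5 genes whose names mark 10 probes on the array, out of 27376 gene names and 41174 probes in all. All 5 genes and 9 of the 10 probes passed the filter on dim probes, as did 15725 genes overall. The 5 genes were selected on the measured values of these same arrays, across the 4 groups and between the paired legs, so their levels and differences are given as a description and no test of them is offered as support.

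RNA came from 10 male C57Bl6 mice, and 20 arrays were hybridised, 1 for each leg. At 8 weeks of age the mice were given recombinant AAV6 vectors (adeno-associated virus) by intramuscular injection of 30 µL, and per the labels the soleus was targeted along with the EDL. The left leg received an empty vector, and the contralateral leg received a pair of vectors, at 2.5e+10 vector genomes each, for D832N HDAC4 and D861N HDAC5, which are class IIa histone deacetylases made dominant negative (dnHDAC4/5). After 4 weeks the animals received intraperitoneal Scriptaid, a hydroxamate inhibitor of histone deacetylases, or vehicle (5% DMSO in PBS). The groups, of 5 arrays each, are named EV and HV in vehicle animals and ES and HS in Scriptaid animals, with E for the empty vector and H for dnHDAC4/5, and ES 3 stands for replicate 3 of ES. Every leg thus carried a vector, and the empty-vector legs share an animal with the dnHDAC4/5 legs. ES was assigned to Scriptaid from its treatment label, its description and the shared animal numbers, although the sample titles read vehicle. The labels do not give the promoter that drives the dnHDAC4/5 transcripts.

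In the SLC16 family, MCT1 and its closest relatives carry lactate, pyruvate and related acids together with a proton and need an accessory glycoprotein to reach the membrane, whereas other members carry aromatic amino acids, thyroid hormones or creatine. In muscle, the Slc16a3 product (MCT4) is known for lactate export from glycolytic fast fibres, and the Slc16a1 product (MCT1) for lactate uptake into oxidative fibres. The SLC6 family couples uptake to sodium and chloride, and its member Slc6a8 is the route by which muscle, which makes little creatine of its own, takes creatine up from blood. Class IIa histone deacetylases repress muscle genes through MEF2 factors and leave the nucleus during exercise.

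Values are log2 of the processed intensity minus the 75th percentile of the same array, so 0 is the level below which 75% of that array's spots lie. Levels of different probes cannot be set against each other, and only groups are compared for a given probe. The 75th percentile lay between 248.4 and 608.1 intensity units, and 51.7% to 61.3% of the spots on an array passed the scanner software's background test. Along the array edge, 3.17% to 5% of spots were unusually low on the 5 HS arrays, against 0.0251% to 0.628% on the other 15, so this defect set apart the group in which Slc16a12 was low. Away from the edge the shares were 0.0736% to 0.267% on HS. On the other 15 they were 0.0127% to 0.898%, with EV 5 the highest and ES 5 next at 0.0812%. The scanner software marked 657 to 1342 spots as outliers on HS, against 375 to 685 on the others. The muscle markers summed to between 269 and 562 over the arrays, the fast fibre markers to between 383 and 874 and the slow fibre markers to between 5.21 and 110 (linear scale, 75th percentile as 1). The slow fibre sum reached 110 on EV, 15.8 on HV, 24.8 on ES and 55.6 on HS. Only genes with a value on every array and a probe outside the edge strip were summed. They were 4 of 6 tested muscle, 4 of 9 fast fibre and 6 of 9 slow fibre markers. These sums rest on different probes and are not compared between lists. Each group held 1 fixed place on all 5 slides, and the place cannot be told apart from the group. Fewer cells of a type and less RNA per cell cannot be told apart in whole muscle.

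RefSeq (GRCm38.p6) promoters were at hand for 4 of the 5 genes. Of these, 2 are shown over the 250 bases before the start site, in capitals where a hypoxia response core (ACGTG or GCGTG, either strand) was found: Slc16a12, the member with the widest separation of groups, and Slc16a3, the lactate exporter for which hypoxic induction is textbook knowledge. The Slc16a12 stretch lies at chr19:34747329-34747578 on the minus strand and the Slc16a3 stretch at chr11:120948817-120949066 on the plus strand.
Slc16a12: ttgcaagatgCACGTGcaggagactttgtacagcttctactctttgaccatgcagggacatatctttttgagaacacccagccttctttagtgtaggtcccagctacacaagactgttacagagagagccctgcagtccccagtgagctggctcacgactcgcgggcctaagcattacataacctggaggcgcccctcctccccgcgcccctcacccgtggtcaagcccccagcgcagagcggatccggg
Slc16a3: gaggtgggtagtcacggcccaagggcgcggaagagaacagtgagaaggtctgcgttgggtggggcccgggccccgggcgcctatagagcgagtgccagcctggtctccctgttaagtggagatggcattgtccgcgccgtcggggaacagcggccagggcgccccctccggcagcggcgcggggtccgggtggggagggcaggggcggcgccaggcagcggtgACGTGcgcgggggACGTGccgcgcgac

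The 2 cores of Slc16a12 overlap within a CACGTG palindrome, which is also an E-box (CANNTG), at -240 from the start site. Those of Slc16a3 lie at -27 and -14. Slc16a1 had 4 such cores and Slc16a10 had 2, against at least 1 in 38.6% of all 32851 promoters of that table. An E-box was found in Slc16a1, Slc16a10 and Slc16a12, and in 66.2% of all promoters. None of the 4 stretches held the MEF2 motif (2.92% of all promoters) or AAGGTCA, the motif of estrogen-related receptors (4.08%), on either strand. These matches describe letters in a window and are not binding sites.

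Slc16a12 encodes MCT12, a creatine-transporting member of the SLC16 family best known from the lens and the kidney. It was lower in the HS legs than in any other group. Its values (probe A_51_P221031) were -3.34, -3.22, -3.25, -2.75 and -3.18 on EV replicates 1 to 5, and -2.96, -2.84, -2.99, -3.22 and -2.94 on HV. They were -3.39, -2.99, -2.89, -3.24 and -3.41 on ES, and -3.72, -3.80, -3.83, -3.81 and -4.0 on HS. All 5 HS arrays lay below all 15 others, while EV, HV and ES overlapped. The group means in falling order were -2.99 ± 0.14 for HV, -3.15 ± 0.23 for EV, -3.18 ± 0.24 for ES and -3.83 ± 0.10 for HS (SD, n = 5 each). The gaps among HV, EV and ES were smaller than the pooled SD of 0.19, and the gap of 0.65 between ES and HS was larger.

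**Figure D1:**
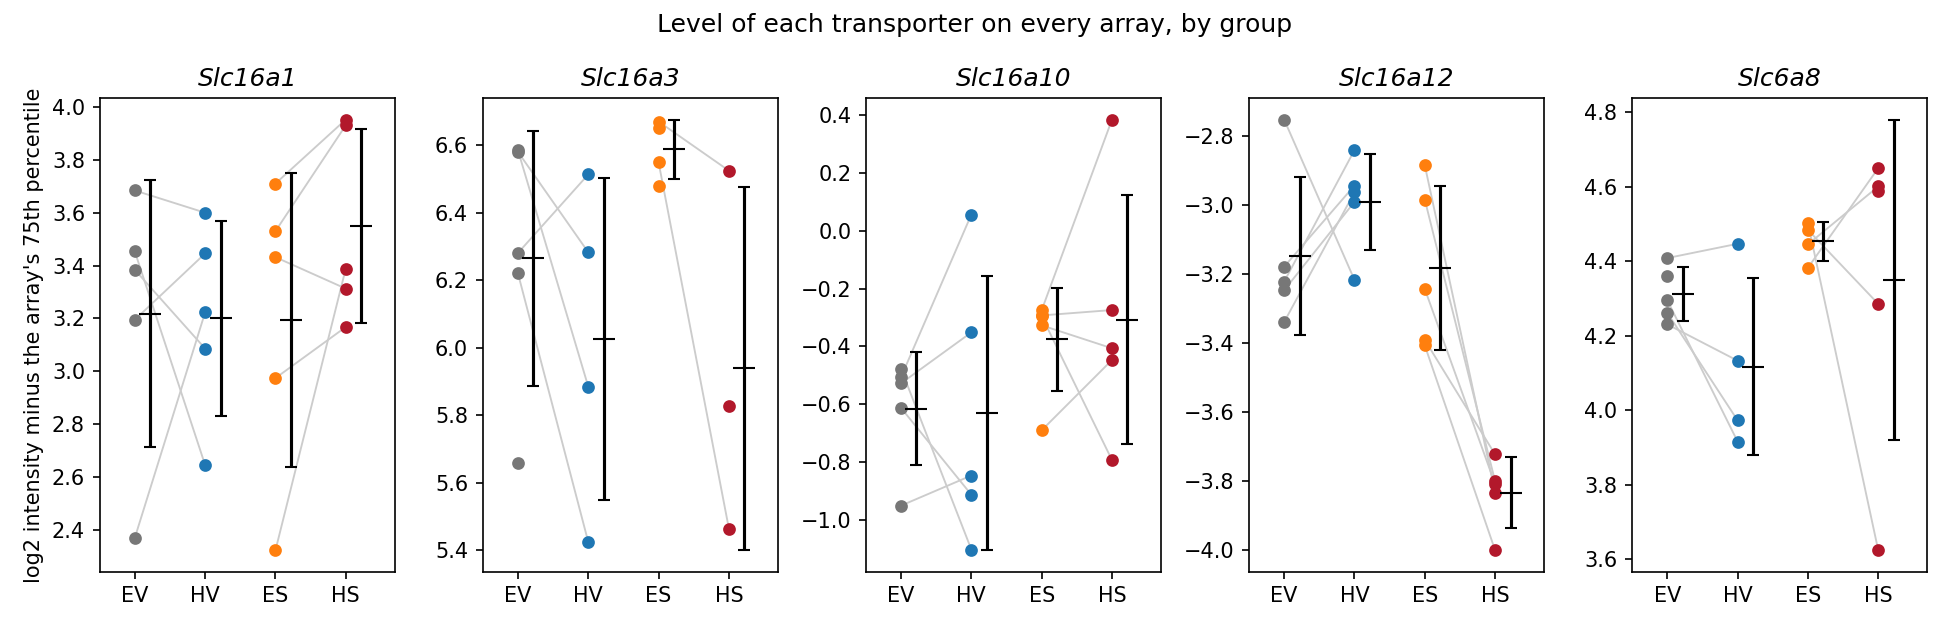
Level of each transporter (log2 intensity minus the array's 75th percentile) on the 20 arrays, with 1 panel per gene and its own axis; grey lines join the legs of an animal, and black bars give the mean and SD of each group. The Slc16a12 values of HS lie between -4.0 and -3.72, below the other 15 arrays, whereas the groups of the other genes overlap.

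The same Slc16a12 values can be read as differences between the legs of an animal. In the Scriptaid animals, the dnHDAC4/5 leg differed from the empty-vector leg by -0.33, -0.82, -0.95, -0.56 and -0.59 in replicates 1 to 5. In the vehicle animals the differences were 0.38, 0.38, 0.26, -0.46 and 0.24. The level in the dnHDAC4/5 leg was thus lower in 5 of 5 Scriptaid animals and in 1 of 5 vehicle animals. The SD of these leg differences was 0.24 in Scriptaid animals and 0.35 in vehicle animals. The fitted difference was -0.65 ± 0.13 (SE) in Scriptaid animals, or 0.637 times the empty-vector level, and 0.16 ± 0.13 in vehicle animals. This fit compares group means with 1 shared spread and does not pair the legs, so its SE is not that of the leg differences. Between animals, HS differed from HV by -0.84 ± 0.13, or 0.558 times, and ES from EV by -0.03 ± 0.13. The interaction, which is the difference between the leg differences of the Scriptaid and vehicle animals, was -0.81 ± 0.18.

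**Figure D2:**
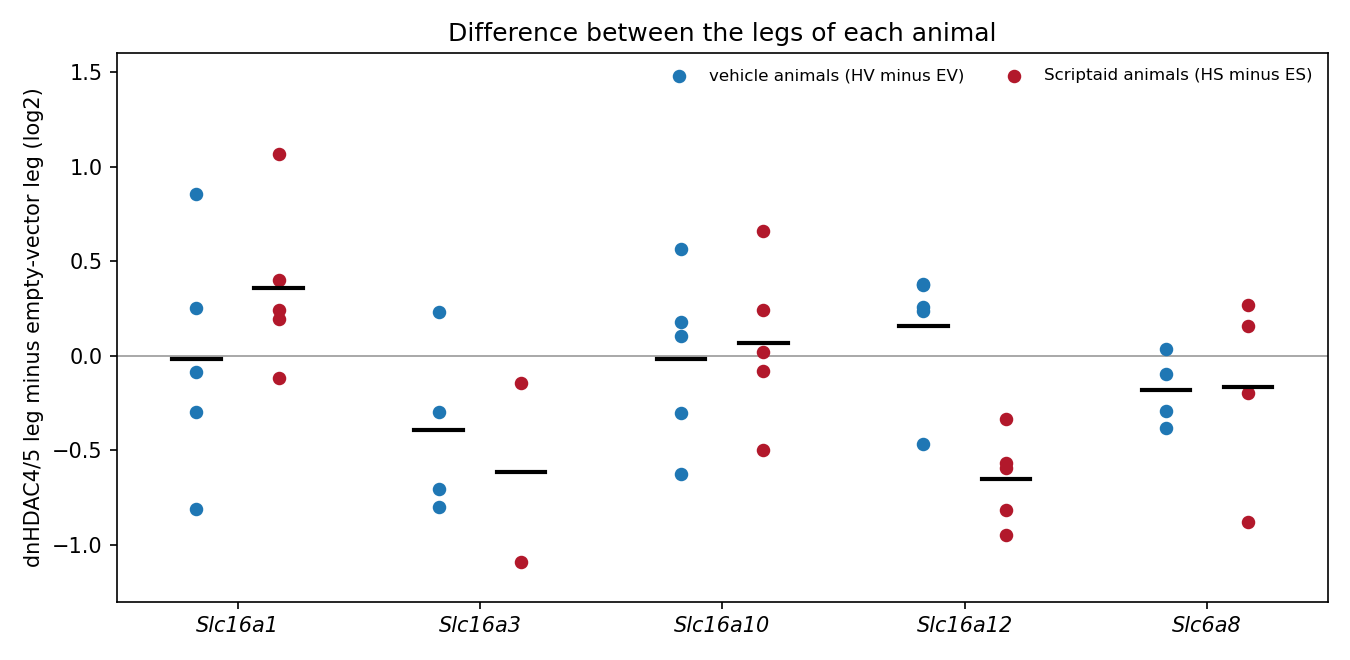
Difference between the dnHDAC4/5 leg and the empty-vector leg of each animal (log2), for vehicle animals in blue and Scriptaid animals in red, with a black line at the mean. For Slc16a12 the 5 Scriptaid animals lie between -0.95 and -0.33, and for the other genes with all 5 differences measured both kinds of animal span 0.

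Over all genes tested, HS lay wholly below HV for 0.954% of genes and wholly below ES for 1.36%, and Slc16a12 was the only member in either count. The vector in Scriptaid animals gave 195 calls among 15725 genes (1.24%, adjusted p under 0.05 by limma), 1 of them a member, Slc16a12. Scriptaid in dnHDAC4/5 legs gave 202 calls (1.28%), again with Slc16a12 as the only member. With the spots of the array edge left out, the shares were 0.0735% and 0.154%, and Slc16a12 was called in the second of these comparisons but not in the first. Since the members were picked on these values, nothing is read from these counts.

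The Slc16a12 probe is dim, and its value depends on how background was handled. It was well above background on all 20 arrays. Its mean signal exceeded the local background by 63.2 to 86.4 intensity units on EV, 59.7 to 103 on HV, 53.1 to 121 on ES and 37.2 to 61.4 on HS, so on this plain scale, not set to the 75th percentile, HS lay below EV and overlapped HV and ES. A normexp correction with the planned offset of 50 reduced the difference between the legs of Scriptaid animals to -0.18 and that between HS and HV to -0.39, and neither was called. That fit failed on 3 arrays: it added 521 units to EV 2, 601 to EV 4 and 32.8 to HV 2, where the local background of a few spots reached 65535, 48005 and 1684. With those backgrounds mended, the differences were -0.18 and -0.35 with the offset, which is of the size of the probe's own signal, and -0.46 and -0.67 without it, the last of which was called. Without the offset HS 1 (-2.90) came above EV 1 (-2.96) and ES 1 (-2.91), and the other 4 HS arrays stayed below all arrays of the other groups. With it HS 1 (-1.87) lay above every ES array, HS 2 (-2.21) and HS 5 (-2.22) lay above EV 1 and EV 2 (both -2.24), and HS 3 and HS 4 stayed below all arrays of the other groups. The interaction turned to 0.29 with the planned normexp correction, and with mended backgrounds it was -0.30 with the offset and -0.59 without it.

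**Figure D3:**
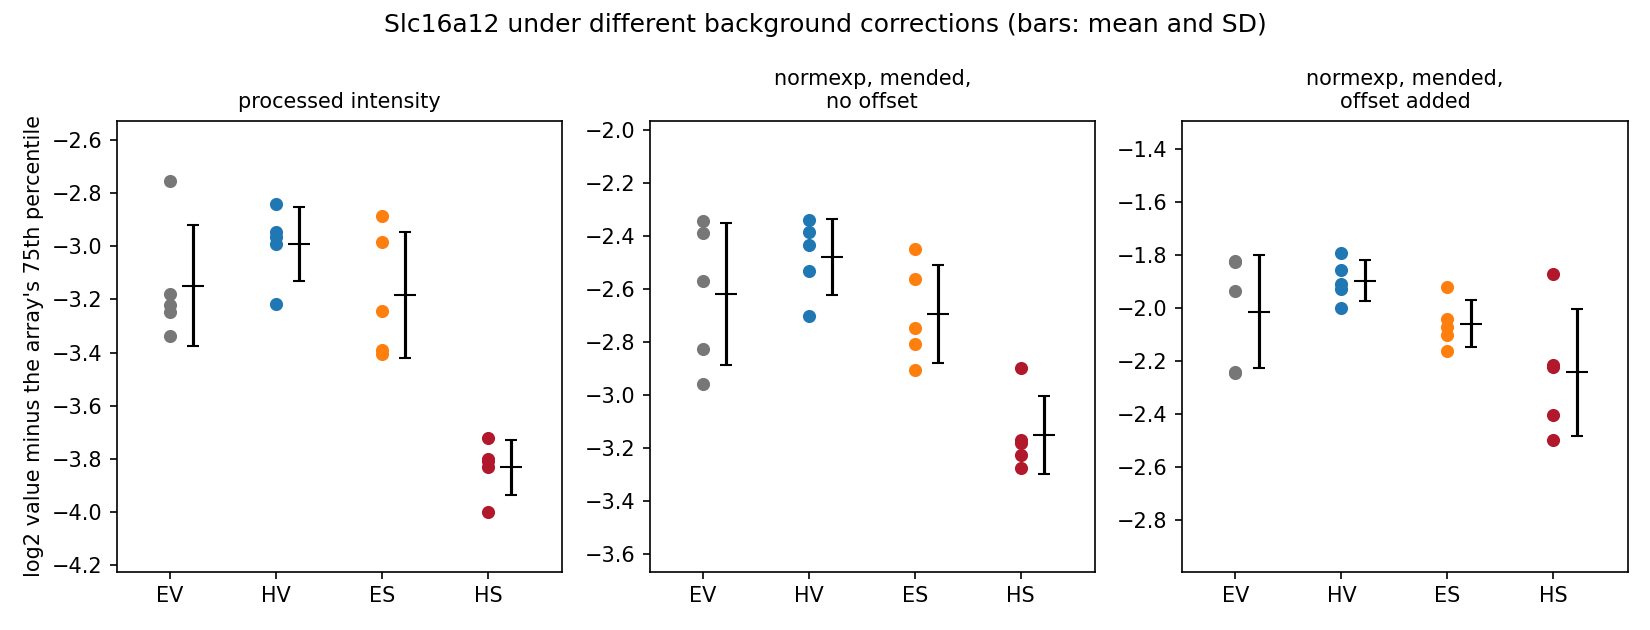
Slc16a12 on the 20 arrays by group (log2 value minus the array's 75th percentile; bars give mean and SD) from the processed intensity and from normexp correction with mended backgrounds, without and with the offset of 50. The axes span the same width, and the gap between HS and the other groups narrows from left to right.

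The spot lies outside the low edge strip. Among the 141 kept probes within 10 rows and 5 columns of it, the median difference was -0.01 for HS against ES and 0.01 for HS against HV, with quartiles at -0.23 and 0.15 and at -0.17 and 0.17. The 3932 genes of lowest mean level had a median difference of -0.017 for HS against ES and -0.0013 for HS against HV. These medians describe many probes, and the part of place or dimness in the Slc16a12 values was not tested.

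Slc6a8, the creatine transporter, did not follow Slc16a12. Its values were 4.23, 4.26, 4.36, 4.30 and 4.41 on EV, 4.13, 3.97, 3.92 and 4.45 on HV replicates 1, 2, 4 and 5, and 4.45, 4.50, 4.38 and 4.48 on ES replicates 1, 2, 4 and 5. On HS they were 4.60, 3.62, 4.59, 4.65 and 4.29. The spots of HV 3 and ES 3 were left out as outliers by the scanner software. The groups overlapped, with HS 2 as the lowest of all arrays. The means in falling order were 4.45 ± 0.05 for ES, 4.35 ± 0.43 for HS, 4.31 ± 0.07 for EV and 4.12 ± 0.24 for HV (SD), and no neighbouring pair differed by more than the pooled SD of 0.26. The fitted difference of group means was -0.19 ± 0.18 (SE) for HV against EV and -0.10 ± 0.18 for HS against ES. Between the legs of an animal, the difference was negative in 3 of 4 vehicle and 2 of 4 Scriptaid animals with both legs measured. Its mean was -0.18 in the vehicle animals and -0.16 in the Scriptaid animals.

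Slc16a3, the lactate exporter MCT4, had values of 5.66, 6.22, 6.58, 6.59 and 6.28 on EV and of 5.42, 6.28, 5.89 and 6.51 on HV replicates 2 to 5. They were 6.67, 6.55, 6.65 and 6.48 on ES replicates 1, 2, 3 and 5, and 6.53, 5.46 and 5.83 on HS replicates 1, 2 and 4. The spots of HV 1, ES 4, HS 3 and HS 5 were left out as outliers. ES was high and narrow, and the lowest 2 values came from dnHDAC4/5 legs, but each pair of groups overlapped. The means were 6.59 ± 0.09 for ES, 6.27 ± 0.38 for EV, 6.03 ± 0.48 for HV and 5.94 ± 0.54 for HS (SD). No neighbouring gap exceeded the pooled SD of 0.39. The leg difference was negative in 3 of 4 vehicle animals and in both of the 2 Scriptaid animals with both legs measured. Over all 10 animals the fitted vector difference was -0.44 ± 0.19 (SE), in a comparison that called 172 genes (1.09%; 267 with the animal as a replicate block) and no member. ES differed from EV by 0.32 ± 0.25.

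Slc16a1, which encodes the broadly expressed lactate carrier MCT1, has 3 probes, and they did not move together. The probe of highest level (A_51_P397367) read 3.20, 3.45, 3.68, 3.38 and 2.37 on EV and 3.45, 2.65, 3.60, 3.09 and 3.22 on HV. It read 3.71, 2.97, 3.43, 3.53 and 2.32 on ES and 3.95, 3.17, 3.31, 3.93 and 3.39 on HS. HS held the highest values and replicate 5 of both empty-vector groups the lowest, and all groups overlapped. The group means lay between 3.19 (ES) and 3.55 (HS), with a pooled SD of 0.46. The second probe (A_52_P245119), 3858 bases away by the files' positions, was dim and had its lowest mean in HS, -2.64 ± 0.34, against -2.48 ± 0.14 in EV (SD, n = 5 each). For HS against ES the first probe gave 0.36 ± 0.28 (SE) and the second -0.19 ± 0.16, so they differed in sign. The third probe, A_51_P397363, lies in the edge strip, lost 11 of 20 spots as outliers and failed the filter.

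Slc16a10 encodes a carrier of aromatic amino acids and thyroid hormones (TAT1, MCT10) and has 4 probes. The brightest (A_52_P527917) read -0.95, -0.61, -0.53, -0.51 and -0.48 on EV, -0.85, -0.91, -0.35, 0.06 and -1.10 on HV, -0.29, -0.30, -0.69, -0.27 and -0.33 on ES, and -0.27, -0.79, -0.45, 0.39 and -0.41 on HS. The Scriptaid groups had the higher means, -0.31 ± 0.43 for HS and -0.38 ± 0.18 for ES against -0.62 ± 0.19 for EV and -0.63 ± 0.47 for HV (SD), and all groups overlapped. Scriptaid on the mean of both legs gave 0.28 ± 0.16 (SE), in a comparison that called 32 genes (0.204%) and no member. A probe 851 bases away (A_52_P527924) gave 0.28 ± 0.15, and one 57184 bases away (A_52_P37702) gave 0.11 ± 0.19. The fourth (A_51_P448618) gave -0.26 ± 0.31. It and A_52_P527924 lie in the edge strip, and the 63 kept probes around A_51_P448618 had a median difference of -0.30 for HS against ES.

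**Figure D4:**
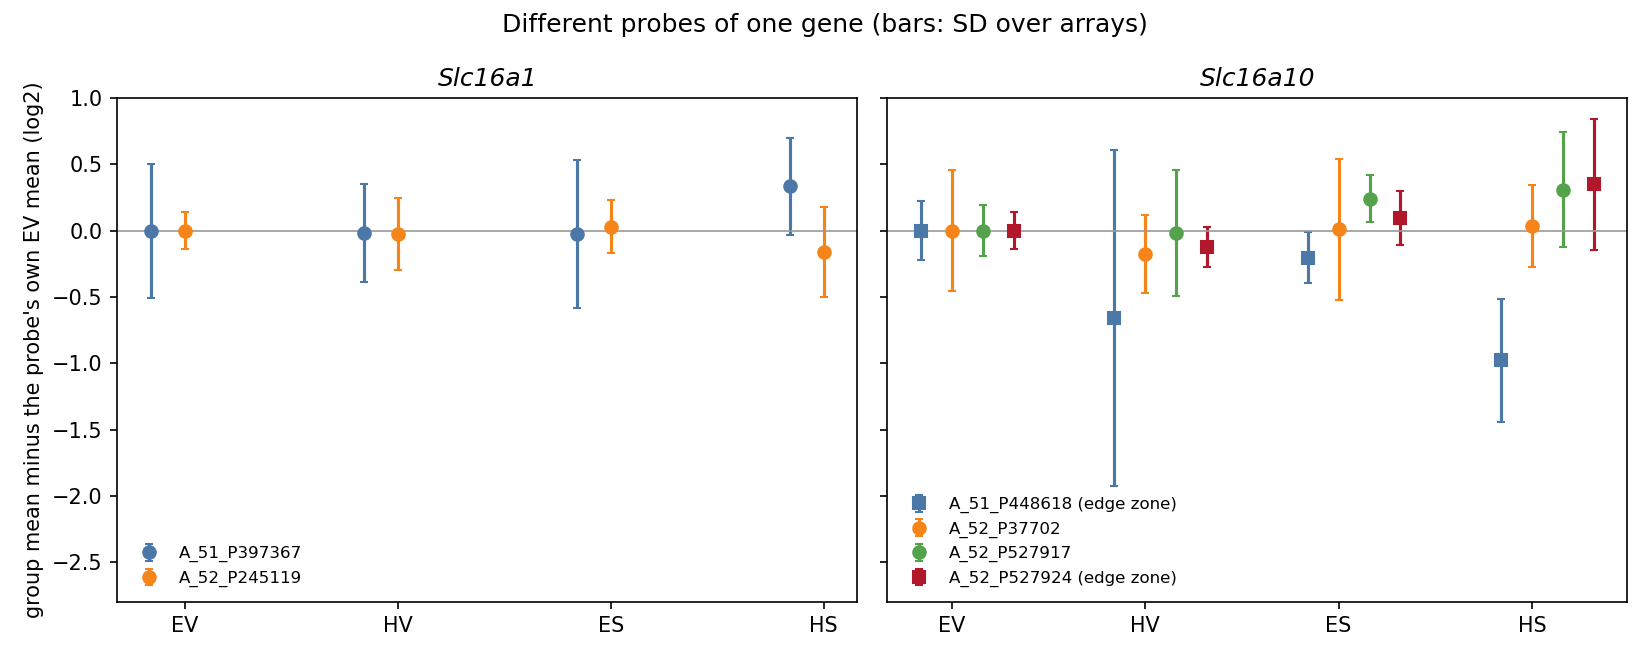
Group means of the probes of Slc16a1 and Slc16a10, each relative to its own EV mean (log2; bars give the SD over arrays, squares mark probes in the edge strip; the Slc16a1 probe that failed the filter is not drawn). In HS the Slc16a1 probes lie on either side of 0, and A_51_P448618 of Slc16a10 lies well below the other 3.

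In the other comparisons no member was called. The vector in vehicle animals and Scriptaid in empty-vector legs gave 0 calls in limma (0%), with 730 and 602 genes at an unadjusted p under 0.05. The interaction called 28 genes (0.178%). Without the edge spots the vector over all 10 animals called 57 of 14964 genes (0.381%). Comparisons that use the same arrays are not independent of each other.

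**Figure D5:**
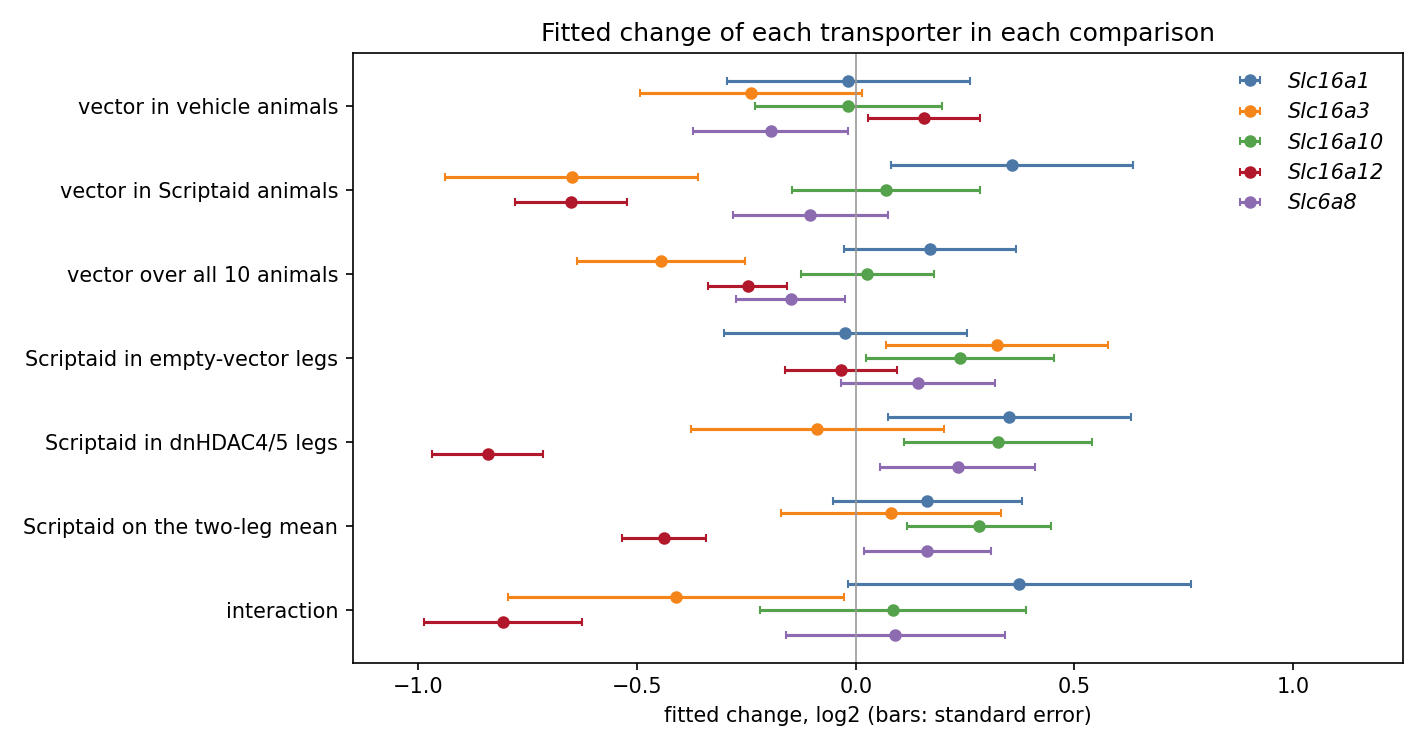
Fitted difference (log2) with its standard error for each transporter in the 7 comparisons. Slc16a12 stands at -0.84 for Scriptaid in dnHDAC4/5 legs and -0.65 for the vector in Scriptaid animals, and the other 4 genes lie between -0.65 (Slc16a3) and 0.37 (Slc16a1).

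The wider transport and metabolism lists held no called gene in any comparison. In the rest of the SLC16 family, 8 of 10 genes were tested, with a median vector difference over all 10 animals of -0.04 against 0.02 for all genes. Slc16a8 (MCT3, a lactate carrier of the retinal pigment epithelium) gave -0.56 ± 0.17 (SE, adjusted p = 0.121 by limma), and Slc16a6 gave -0.38 ± 0.20 (adjusted p = 0.46). Like Slc16a12, the dim Slc16a8 had its lowest mean in HS, -3.53 ± 0.25 (SD), though its groups overlapped. The other means were -2.86 ± 0.58 in EV, -3.21 ± 0.25 in HV and -2.75 ± 0.38 in ES. Of the 8 genes, 5 were lower and 3 higher in HS than in ES. For Scriptaid on the mean of both legs, Slc16a7 (MCT2), read from an edge probe, gave 0.21 ± 0.31 and Slc16a13 gave 0.20 ± 0.22. Of the creatine genes, 4 of 6 were tested. For the vector over all 10 animals, Gamt, which methylates guanidinoacetate to creatine, gave -0.89 ± 0.30 (adjusted p = 0.185 by limma). Ckb, the brain-type creatine kinase, gave -0.25 ± 0.34. Gamt too had its lowest mean in HS, 0.93 ± 0.98 (SD), against 2.18 ± 0.38 in EV, 1.35 ± 0.87 in HV and 1.89 ± 0.45 in ES. Of the 4 creatine genes, 2 were lower and 2 higher in HS than in ES. For Scriptaid, Gamt gave -0.36 ± 0.36 and Gatm, which makes guanidinoacetate, 0.17 ± 0.20. Ckm, the muscle-type kinase, gave 0.19 ± 0.16 for the vector over all 10 animals (adjusted p = 0.716 by limma).

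Among partners of the monocarboxylate carriers and enzymes of lactate and pyruvate, 10 of 16 genes on the array were tested. Pcx, pyruvate carboxylase, gave 0.56 ± 0.22 for the vector over all 10 animals (adjusted p = 0.301), and Emb (embigin), an accessory protein of MCT1, gave 0.55 ± 0.32 (adjusted p = 0.539). For Scriptaid they gave 0.30 ± 0.26 and -0.38 ± 0.33. Bsg (basigin), the accessory protein of MCT1 and MCT4, lost 7 of 20 spots as outliers. With such spots kept, its vector difference was -0.05 ± 0.23 and its Scriptaid difference 0.12 ± 0.22. Of the rest of the SLC6 family 8 of 19 genes were tested, and Slc6a9, a glycine transporter, was nearest to a call, with 0.61 ± 0.16 for the vector over all 10 animals (adjusted p = 0.072). Slc6a13, a GABA transporter, gave -0.29 ± 0.28 for the vector and 0.30 ± 0.26 for Scriptaid, and Slc6a4, the serotonin transporter, gave 0.53 ± 0.46 for Scriptaid.

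All 14 further amino acid transporters were tested. For the vector in Scriptaid animals, 11 of them had a higher and 3 a lower fitted level, with a median of 0.32 against 0.03 for all genes, and none was called. In vehicle animals 6 were higher and 8 lower, with a median of -0.06. Slc38a4 and Slc38a2, which take up neutral amino acids with sodium, gave 0.53 ± 0.20 and 0.50 ± 0.22 for the vector over all 10 animals (adjusted p = 0.257 and 0.357). Slc36a1 was nearest to a call in this list, with 0.49 ± 0.13 in that comparison (adjusted p = 0.0653 by limma). Slc7a8, the LAT2 subunit, gave 0.60 ± 0.21 for Scriptaid on the mean of both legs (adjusted p = 0.561), and Slc43a3 gave 0.56 ± 0.27 (adjusted p = 0.756). In the thyroid hormone list 6 of 8 genes were tested, and Dio3, the inactivating deiodinase, gave 1.06 ± 0.43 for Scriptaid (adjusted p = 0.653) and 0.20 ± 0.34 for the vector. Dio2, the activating deiodinase, gave -0.29 ± 0.26 for Scriptaid, and Thrb, a thyroid hormone receptor, 0.20 ± 0.10 for the vector.

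Among factors known to act on these carriers or on oxidative genes, 8 of 9 were tested and none was called. All 8 had a higher fitted level in ES than in EV, with a median of 0.20 against 0.01 for all genes, and 7 of 8 were higher in HS than in HV, with a median of 0.33 against 0.05. For the vector over all 10 animals 4 were higher and 4 lower. For Scriptaid on the mean of both legs, Ppargc1a, the coactivator of mitochondrial biogenesis, gave 0.45 ± 0.11 (adjusted p = 0.301), and Ppara, a nuclear receptor of fatty acid oxidation, gave 0.77 ± 0.21 (adjusted p = 0.36). For the vector over all 10 animals, Mef2a gave 0.38 ± 0.13 (adjusted p = 0.178) and Mef2d 0.36 ± 0.14 (adjusted p = 0.279).

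Marker lists of other cell types were set beside the members. Summed levels ranged from 3.38 to 11 for macrophage markers, 2.37 to 16.9 for Schwann cell markers, 14.8 to 27.4 for endothelial markers, 71.3 to 266 for adipocyte markers and 0.756 to 22.3 for red blood cell markers. The sums again cover part of the tested genes: 6 of 10 macrophage, 7 of 9 Schwann cell, 6 of 7 endothelial and 3 of 4 red blood cell markers. All 7 adipocyte markers were summed. The 4 groups overlapped in each, and HS, where Slc16a12 was low, spanned 3.38 to 11, 2.91 to 9.88, 14.8 to 24.1, 110 to 266 and 1.42 to 22.3. In the 2 comparisons that called Slc16a12, all 7 adipocyte markers had a higher fitted level in HS, with medians of 1.94 against ES and 1.08 against HV, and none was called. In vehicle animals 1 of the 7 was higher and 6 were lower with dnHDAC4/5 (median -0.45). The 4 red blood cell markers tested were also higher in HS (medians 0.49 and 1.12), as were 9 and 8 of 10 macrophage markers (0.30 and 0.25) and 5 and 8 of 9 Schwann cell markers (0.01 and 0.50), whereas 6 and 5 of 7 endothelial markers were lower (-0.21 and -0.14). With the edge spots left out, 4 and 3 of 6 endothelial markers were lower (-0.12 and -0.03). Of the macrophage markers 7 and 6 of 7 were then higher, and of the Schwann cell markers 5 and 8 of 8. With the edge spots included, 7 of 9 slow fibre markers were lower in HV than in EV (median -1.03). In ES 8 were lower than in EV (-0.81). In HS 8 were higher than in ES (0.19) and 5 higher than in HV (0.37), and none was called. Of 9 fast fibre markers, 8 were higher in HV than in EV (0.12) and 4 in ES than in EV (0). Those higher in HS were 7 against ES (0.05) and 3 against HV (-0.09).

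In these lists and in the muscle list, the called genes were Casq1, Cdh5 and Sox10, all lower and all read from edge probes. Pvalb (parvalbumin), a fast fibre gene, lost 12 of 20 spots as outliers and was not tested. With such spots kept it gave -2.93 ± 0.28 for the vector over all 10 animals and -2.78 ± 0.17 for Scriptaid, and its probe too lies in the edge strip. The largest other vector differences in these lists, none of them called, came from Mbp, Retn, Cfd, Tek, Myl1, Lyz2, Cd68, Ckm, Myod1, Slc4a1, Tnnc1 and Myh7, and ran from -1.13 (Tek, from an edge probe) to 0.92 (Retn). For Scriptaid they came from Gjb1, Prx, Retn, Plin1, Tek, Myl1, Cd68, C1qc, Acta1, Ckm, Alas2, Hbb-b1, Myh7 and Myl2, and ran from -0.99 (Cd68, from an edge probe) to 0.61 (Alas2). The part of cell content in the members' values was not tested.

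The genes most like each member over the arrays, among 10052 with a value on every array and outside the edge strip, were as follows. Slc16a1 lay closest to Eif2ak1 (Pearson r = 0.84 over 20 arrays), F11r (0.83) and Clasrp (0.74). Slc16a3 lay closest to Lrrc39, Cyb5b and Rabep1, each at 0.90 over 16 arrays. Slc16a10 lay closest to Nsmaf (0.88), Ptges3 (0.87) and Nop2 (0.86), and Slc6a8 to Rhbdl3 (0.88), Gspt1 (0.86) and Rps6kl1 (0.85) over 18 arrays. For these members r within groups stayed between 0.70 and 0.87. Slc16a12 lay closest to Cacnb2 (0.85), Ss18l1 (0.76) and Slc22a26 (0.75), but within groups these were 0.47, 0.23 and 0.44. Among the members, the highest r was 0.69, between Slc16a3 and Slc6a8 over 14 arrays, and 0.63 within groups. Arrays of an animal or a slide share their source, and these values are descriptions.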

How the data were processed

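One-colour arrays (Agilent design 014868) held 20 samples in 4 groups of 5. Per the file headers, Feature Extraction 9.5.1.1 (GE1-v5_95_Feb07) corrected background and wrote the deposited processed intensity, whereas mean and background intensity are also in the authors' scanner files. The deposited series matrix holds a ratio: the files show processed intensity divided by 1 constant per array. Here log2 intensity minus the array's 75th percentile was used. Spots that the scanner software marked as outliers were left out, a probe needed to be well above background on 5 arrays with 3 arrays left per group, and each gene was represented by its brightest probe.

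A model of 4 group means was fitted with limma 3.58.1 in R 4.3.3, without a block, with Benjamini-Hochberg adjustment over all genes and calls at 0.05. Scriptaid on the mean of both legs was fitted on 10 animal means. The fit was tested on simulated independent arrays with known shifts in HS. These had no paired legs, edge defect or left-out spots, so the simulation does not bear on those features. Members, lists and tests were chosen with earlier results of these data known. Lists' called genes and their 2 largest differences (vector over 10 animals, Scriptaid on both legs) were named, with the 3 genes most like each member. Bsg and Pvalb were named besides, after their values were seen, and 1 gene that the rule selects is not reported here. Legs are paired by animal identifier. Deviations of the legs of an animal correlated at 0.03 to 0.41 (median 0.28, 10 pairs). Replicate numbers are slides. The number of arrays limits precision. Probe positions have no stated build, so only distances are printed.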

Additional observations from a re-analysis of the deposited data

Results flagged for a closer look

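In 35 groups of member values with enough arrays, 4 held a value far from the rest, where chance gives about 1 in 20. Slc16a12 on EV 4 was -2.75, against -3.34 to -3.18 on the other EV arrays. Slc16a10 by its edge probe A_51_P448618 on HV 5 was -3.59, against -0.92 to -0.60. Slc16a10 by A_52_P527917 was -0.95 on EV 1, against -0.61 to -0.48, and -0.69 on ES 3, against -0.33 to -0.27.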

How the results depend on the processing

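Member differences and counts of calls were recomputed under the planned settings and under 3 chosen after seeing the data: a wider edge zone, normexp with mended backgrounds, and the same without the offset. Of 898 recomputed member differences, 882 moved by less than the pooled SD of the gene, 16 by more and 0 called differences changed sign. All 16 came from a normexp correction, in Slc16a12 (12), Slc6a8 (3) and Slc16a3 (1). Slc16a12 was called for the vector in Scriptaid animals under 6 of 12 settings that keep all arrays, with differences of -0.78 to -0.18, and for Scriptaid in dnHDAC4/5 legs under 9 of 11, with -0.86 to -0.35. Without edge spots, without a wider edge zone, with the series matrix and with all 3 normexp settings it was not called in the first (0 members), and with both normexp settings that add the offset it was not called in the second (0 members). Leaving out any array kept 1 member called in both, and 0 in the other comparisons, save that without EV 4 the interaction called Slc16a12 (0 to 1 members). The members were picked on values of these same arrays, so these calls describe the settings and are no support for a difference.

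Counts of called genes moved by over 1.5 times as follows. For the vector in Scriptaid animals (195) they were 11 without edge spots, 0 without the wider zone, 322 with no filter, 91 with the matrix, 352 and 471 with mended normexp with and without the offset, and 359 with the slide as replicate block. For the vector over all 10 animals (172) they were 57, 39, 72, 105, 391 and 461 in the same order, with 405 for the slide and 267 for the animal as replicate block and 768 with the animal as a random block. For Scriptaid in dnHDAC4/5 legs (202) they were 23 without edge spots, 2 without the wider zone, 109 with the matrix, 436 with mended normexp without the offset and 376 with the slide block. For Scriptaid on the mean of both legs (32) they were 0 without edge spots and the wider zone, 83 with normexp, 93 and 105 with it mended, 17 with no filter, 3 with the matrix and 5 with the slide block. For the interaction (28) they were 0 without edge spots and the wider zone, 83 with normexp, 104 and 125 with it mended, and 4 with the matrix. For Scriptaid in empty-vector legs 1 gene was called with no filter and with mended normexp. The animal as a replicate block changed no call of a member.

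With 1 array left out, the counts lay between 0 and 3 for the vector in vehicle animals (3 without HV 5), 116 and 348 for the vector in Scriptaid animals (116, 117, 119 and 119 without ES 1, ES 2, ES 4 and HS 5, and 348 without HS 2), 80 and 324 for the vector over all 10 animals, 0 and 1 for Scriptaid in empty-vector legs, 133 and 436 for Scriptaid in dnHDAC4/5 legs (without HV 2 and HS 2), 9 and 39 for Scriptaid on the mean of both legs, and 21 and 52 for the interaction (52 without HS 2). Slc16a3 has no value for comparisons with HS when HS 1, HS 2 or HS 4 is left out, because 2 HS arrays remain. The limit for Slc16a12 is its signal, which on HS exceeded the local background by 37.2 to 61.4 units. Apart from refitting normexp with mended backgrounds, the cause of the moves was not tested.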
